A study of Mus musculus with 12 samples.

Results

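The insulin-like growth factor (IGF) axis was followed in RNA-seq of cultured mouse astrocytes through 10 genes, taken as the rows of the count table named *Igf1*, *Igf2*, *Igf1r*, *Igf2r* and *Igfbp2* to *Igfbp7*, out of 18903 genes in all. All 10 passed the filter on low counts, as did 17938 genes of the table, and the lowest count of any of the 10 in any library was 23. The 12 libraries form 6 groups of 2, from WT and *Rack7*-cKO mice dissected at postnatal day 1 (P1), P6 or P8. Per the results section of the study, cKO animals were hGFAP-cre::*Rack7* fl/fl and WT animals hGFAP-cre::*Rack7*+/+. Both thus carry a Cre recombinase driven by the human GFAP promoter, which is active in neural stem cells of the dorsal forebrain and not in every brain cell. Brains were stripped of meninges, and the cells were grown on Matrigel and shaken to remove microglia and oligodendrocytes, so an age below is the age at dissection and every library comes from cells kept in culture. No source read here gives how many animals stand behind a library, and p-values measure only the spread between these libraries.

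IGF1 and IGF2 are secreted growth factors that signal through IGF1R, a receptor tyrosine kinase, while IGF2R, also known as the mannose-6-phosphate receptor, takes up IGF2 and delivers it to lysosomes. The IGF-binding proteins hold the ligands outside the cell, and proteases such as PAPP-A release them again. In the postnatal brain IGF1 is made by neurons and microglia among other cells, and IGF2 mainly by the meninges, the choroid plexus and blood vessels.

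Library totals lay between 54413504 and 89183250 reads. The gene that was targeted, *Zmynd8* (the symbol of *Rack7*), was higher in the libraries labelled cKO at each age, with mean CPM (read counts scaled to library size with TMM factors) of 214 against 136 at P1, 236 against 115 at P6 and 166 against 102 at P8. A count over the whole gene does not show the deleted part, so it does not check the labels, and the groups are called by their labels here. The study itself reports an immunoblot of RACK7 in WT and cKO primary astrocytes, and far fewer RACK7 binding peaks in cKO astrocytes. Neither check reads these RNA libraries. Markers of several cell types were present: the 9 astrocyte markers summed to between 687 and 2253 CPM, the 10 microglia markers to between 2714 and 5700 CPM, the 9 fibroblast markers to between 362.5 and 26055 CPM, the 5 of 8 endothelial markers in the table to between 23.9 and 162 CPM, and the 5 of 7 mural cell markers in the table to between 2486 and 4555 CPM. Oligodendrocyte lineage markers (6 of 7) summed to between 65.7 and 127 CPM, neuronal markers (2 of 7) to between 50.4 and 232 CPM, and choroid plexus and ependymal markers (4 of 6) to between 31.2 and 249 CPM. In bulk RNA, fewer cells of a type and less RNA per cell cannot be told apart.

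*Igf2* and *Igfbp6* had the widest ranges of the 10 genes, and the sequence before a start of each is shown so that this pair can be compared. Each line gives the 250 bases before a RefSeq transcript start (GRCm38.p6), 5′ to 3′ on the strand of the gene, with CG dinucleotides in capitals. The *Igf2* window is the innermost of 4 starts that RefSeq gives for this gene, chr7:142657497-142657746 on the minus strand, and the *Igfbp6* window is chr15:102143936-102144185 on the plus strand.
Igf2: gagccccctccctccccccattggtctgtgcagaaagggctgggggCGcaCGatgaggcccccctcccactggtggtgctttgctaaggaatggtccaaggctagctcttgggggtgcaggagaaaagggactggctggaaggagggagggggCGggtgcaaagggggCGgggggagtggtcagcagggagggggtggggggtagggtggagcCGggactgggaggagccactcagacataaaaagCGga
Igfbp6: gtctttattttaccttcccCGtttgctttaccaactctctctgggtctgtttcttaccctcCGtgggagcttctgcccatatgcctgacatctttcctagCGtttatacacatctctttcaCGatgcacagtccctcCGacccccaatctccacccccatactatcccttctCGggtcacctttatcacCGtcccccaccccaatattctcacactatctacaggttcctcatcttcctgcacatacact

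The *Igf2* window held 6 CG dinucleotides and the *Igfbp6* window 7, against a median of 6 over 32851 mouse promoter windows of this length, so both were near the middle of the distribution. The other 3 *Igf2* starts held 22, 10 and 1. *Igf1r* was at the other end with 42, and 99.3% of all windows held as many or fewer. *Igfbp3* followed with 32, *Igf2r* with 27 and *Igfbp7* with 26. The letters TATAAA were searched on both strands and stood in the windows of *Igfbp4* and *Igfbp6* and in 12.4% of all windows. Gene counts do not tell which start was used.

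The 10 genes together took between 0.371% and 0.914% of a library. Per kilobase of exon (CPM per kb), *Igfbp2* was the highest of the 10 in 5 of the 6 groups, with means from 566 CPM per kb in P8 cKO to 1509 CPM per kb in P6 cKO. IGFBP2 is the binding protein best known from glia and the choroid plexus. In P8 WT the order changed and *Igf2* stood first, at 710 CPM per kb against 374 CPM per kb for *Igfbp2*, and *Igf2* reads made up 57.5% and 42.8% of all reads of the 10 genes in the P8 WT libraries. *Igf1r* was low throughout, between 7.24 and 15.5 CPM per kb. Neighbouring genes in this order whose libraries overlapped were *Igf2* and *Igfbp6* in P1 WT, *Igf1* and *Igf2r* in P6 WT, and *Igfbp5* with *Igfbp7* and *Igfbp4* with *Igf2r* in P8 WT.

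**Figure D1:**
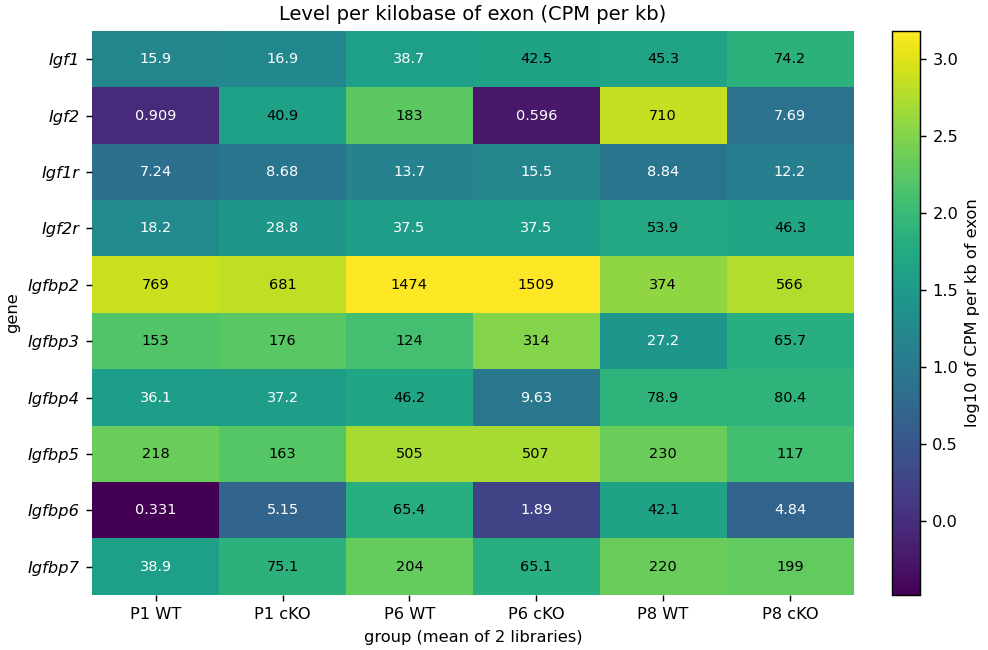
Mean level of each gene in each group, in CPM per kilobase of exon (number and colour, the colour on a log10 scale; mean of 2 libraries). *Igfbp2* is highest in every group but P8 WT, where *Igf2* reaches 710, and *Igf2* and *Igfbp6* change colour most along their rows.

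*Igf2*, the fetal growth factor expressed from the paternal allele in most tissues (chr7:142650766-142666816, minus strand), differed most between the labels. Its levels were 0.603 and 9.81 CPM in the P1 WT libraries and 233 and 235 CPM in P1 cKO. At P6 the order was the opposite, with 1038 and 1062 CPM in WT and 3.87 and 2.96 CPM in cKO. At P8 the levels were 5075 and 3058 CPM in WT and 46.8 and 41.2 CPM in cKO. No library of one label overlapped the other label at any age, and only P6 cKO and P1 WT overlapped among groups next to each other in level. The group means spanned 1192-fold, from P6 cKO to P8 WT.

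In the libraries labelled cKO, *Igf2* was up-regulated at P1 by a log2 fold change of 5.44 ± 0.81 (SE; edgeR adjusted p = 0.00319), down-regulated at P6 (-8.26 ± 0.93, adjusted p = 0.000178) and down-regulated at P8 (-6.53 ± 0.83, adjusted p = 0.000258). The size at P1 rested on the P1 WT libraries, which differ 16.2-fold from each other: the log2 fold change was 4.58 without replicate 1 and 8.60 without replicate 2. With the P1 libraries fitted alone its adjusted p was 0.0563. *Igf2* rose from P1 to P6 in WT (7.61 ± 0.89, but 6.74 without P1 WT replicate 1 and 10.76 without P1 WT replicate 2) and fell in cKO (-6.10 ± 0.85), then rose from P6 to P8 in cKO (3.69 ± 0.79, adjusted p = 0.00468). The further rise in WT from P6 to P8 was 1.95 ± 0.68 with an edgeR adjusted p of 0.0511 and was not called. Its size ranged from 1.54 to 2.27 when a library was left out. Exons of *Igf2* overlap those of *Gm49394* on the same strand and of the antisense gene *Igf2os*, and how reads were assigned to genes is not known, so these genes may share reads.

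*H19*, the non-coding RNA expressed from the maternal allele 72622 bases from *Igf2*, had 8.33 and 10.6 CPM in P1 WT, 23.1 and 24.9 CPM in P1 cKO, 186 and 189 CPM in P6 WT, 1.43 and 0.856 CPM in P6 cKO, 826 and 883 CPM in P8 WT, and 48.1 and 45.8 CPM in P8 cKO. It was thus higher in cKO at P1 and lower at P6 and P8, with log2 fold changes of 1.33 ± 0.16, -7.35 ± 0.21 and -4.19 ± 0.17 (adjusted p = 0.000699, 3.19e-08 and 1.27e-07). The antisense gene *Igf2os* had 0 and 0.147 CPM in P1 WT and 1.00 and 0.685 CPM in P1 cKO, and was called higher there (adjusted p = 0.0495). It was at 0 reads in both P6 cKO libraries, which allows up to 0.0457 and 0.0467 CPM (3 counts, counting error only), and at 1.86 and 1.80 CPM in P6 WT. At P8 it had 6.83 and 6.36 CPM in WT and 0.109 and 0.345 CPM in cKO.

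The summed fibroblast markers were on the same side of WT as *Igf2* at each age. In cKO *Igf2* fell from P1 to P6, while the mean marker sum was 2412 CPM at P1 and 2493 CPM at P6. That sum is mostly *Col1a1* (1076 to 1544 CPM) and *Col1a2* (846 to 904 CPM), and *Col15a1* rose too. Means of *Col3a1* (369 to 24.4 CPM), *Dcn* (89.7 to 2.61 CPM), *Lum*, *Dpt*, *Pdgfra* and *Fbln1* fell in cKO over this step. Their summed level was 362.5 and 376 CPM in P1 WT, 2426 and 2397 CPM in P1 cKO, 6522 and 6582 CPM in P6 WT, 2581 and 2405 CPM in P6 cKO, 26055 and 25934 CPM in P8 WT, and 8106 and 8351 CPM in P8 cKO. Of the 9 markers, 6 were higher in cKO at P1, 6 lower at P6, and 6 lower with 1 higher at P8. The 1 higher at P8 was *Dpt*, near the floor at a mean of 0.197 CPM in cKO against 0 in WT (edgeR adjusted p = 0.0492). *Dpt* was at 0 in all WT groups, *Lum* at 0 in P6 cKO, and the most abundant markers were *Col1a1* and *Col1a2*. The markers did not share 1 ratio: in P6 cKO *Col1a1* was lower by 0.82 on the log2 scale, while *Dcn*, a small proteoglycan of connective tissue, was lower by 6.09. Endothelial markers were called higher in 3 of 5 at P1 and lower in 4 of 5 at P6, and at P8 lower in 2 and higher in 1. Their sum was also on the same side of WT as *Igf2* at each age. Its means in cKO and WT were 50.7 and 25.0 CPM at P1, 60.7 and 124 CPM at P6, and 40.3 and 155 CPM at P8. Summed mural cell markers were higher in cKO at each age. Their means were 3779 against 2580 CPM at P1, 4279 against 3406 CPM at P6 and 3141 against 2500 CPM at P8. Choroid plexus and ependymal sums overlapped at P1. In cKO their means were 143 against 89.9 CPM in WT at P6, and 55.3 against 31.6 CPM at P8. The part of these cells in the *Igf2* result was not tested.

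**Figure D2:**
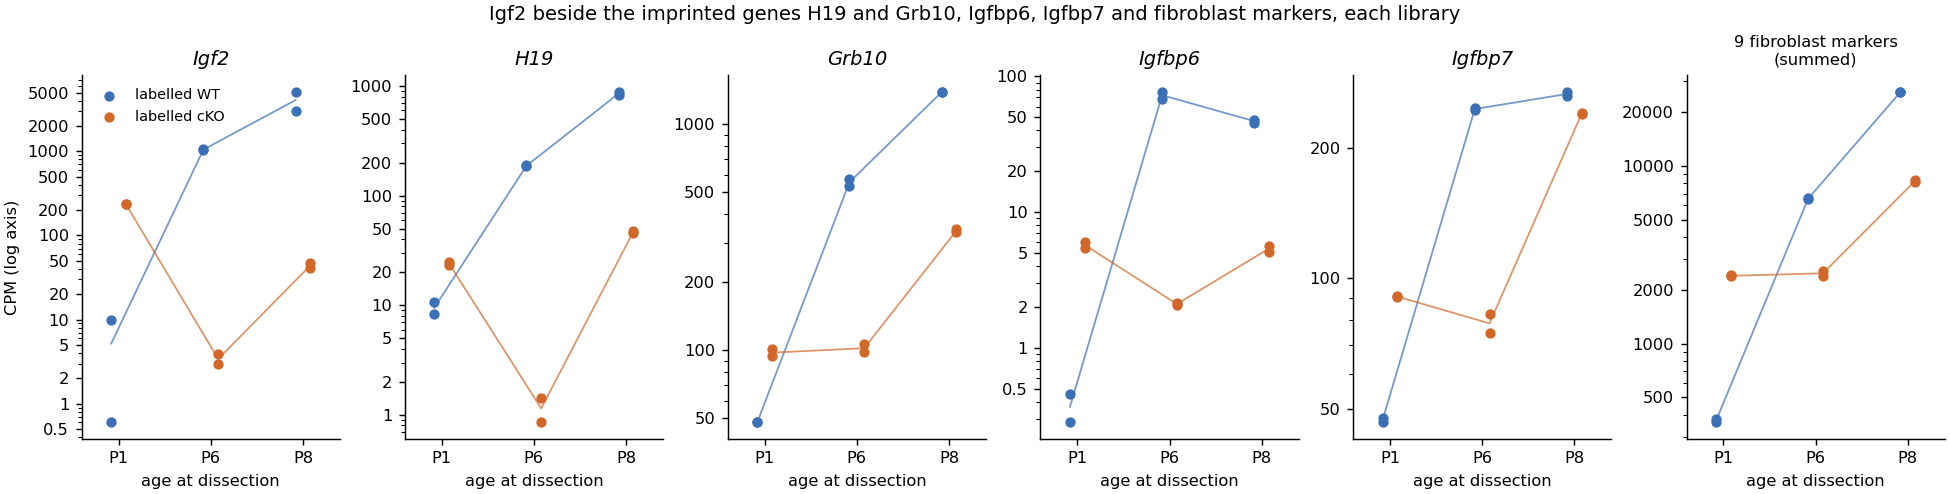
*Igf2* with *H19*, *Grb10*, *Igfbp6*, *Igfbp7* and the sum of 9 fibroblast markers, in CPM on log axes against age; points are libraries and lines join the means of 2. In every panel the cKO points (orange) lie above the WT points (blue) at P1 and below them at P6 and P8, and *Igf2* spans 1192-fold between group means. The panels are a selection, and *Grb10* was chosen after its values were seen, so their shared order is no test.

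*Igfbp6*, whose protein binds IGF2 in preference to IGF1 (chr15:102144362-102149511), showed the same order of labels at each age. Levels were 0.453 and 0.283 CPM in P1 WT and 6.00 and 5.46 CPM in P1 cKO, then 68.7 and 76.8 CPM in P6 WT against 2.06 and 2.15 CPM in P6 cKO, and 45.5 and 48.1 CPM in P8 WT against 5.66 and 5.11 CPM in P8 cKO. The labels never overlapped. The differences were 3.99 ± 0.18 at P1, -5.11 ± 0.16 at P6 and -3.12 ± 0.15 at P8 on the log2 scale (adjusted p = 1.53e-06, 5.17e-08 and 3.45e-07). Its group means spanned 198-fold, and its Pearson correlation with *Igf2* over the 12 libraries, on log2(CPM + 1), was 0.912, the highest of any pair of the 10 genes. This is a description over libraries that share 6 groups.

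*Igfbp7*, a secreted protein with low affinity for IGFs that is abundant in vessels (chr5:77349240-77408041), had 47.6 and 46.5 CPM in P1 WT and 91.1 and 90.4 CPM in P1 cKO. At P6 it had 245 and 247 CPM in WT and 82.7 and 74.7 CPM in cKO, and at P8 269 and 264 CPM in WT and 241 and 239.8 CPM in cKO. Both cKO libraries were above WT at P1 and below WT afterwards, but at P8 only slightly. It was up-regulated at P1 (0.95 ± 0.05, adjusted p = 4.57e-06) and down-regulated at P6 (-1.64 ± 0.05, adjusted p = 4.98e-08). At P8 the difference of -0.15 ± 0.05 was under the 1.5-fold limit. Its exons overlap those of *Polr2b* on the other strand, so reads may be shared if strand was not used.

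**Figure D3:**
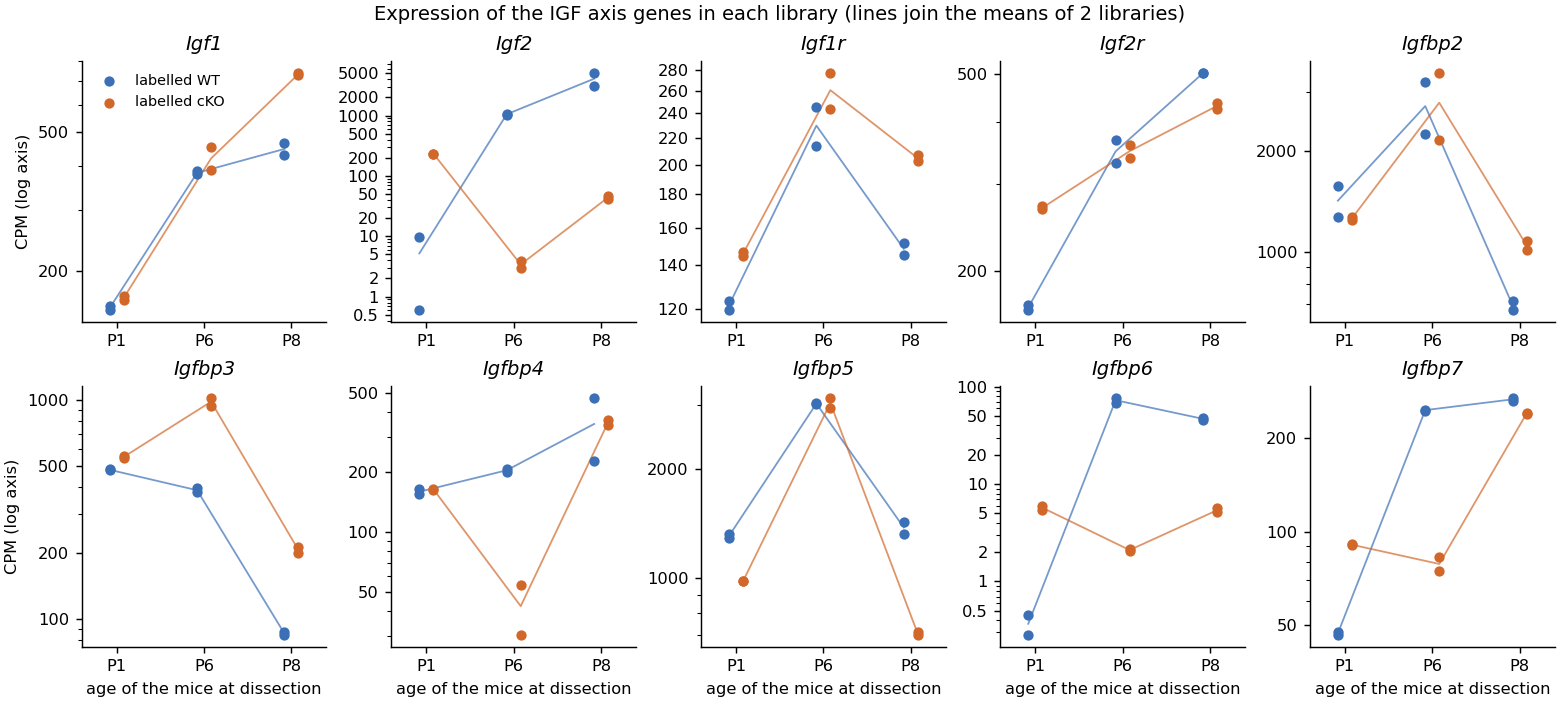
CPM (log axes, each with its own range) of the 10 genes in every library against age at dissection; points are libraries, lines join the means of 2, blue is WT and orange cKO. *Igf2*, *Igfbp6* and *Igfbp7* cross between P1 and P6, while *Igfbp3* stays above WT in cKO and *Igfbp4* drops only in P6 cKO.

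Of the 10 genes, 4 were called between the labels at P1, all of them higher in cKO (*Igf2*, *Igf2r*, *Igfbp6* and *Igfbp7*), against 4.90% of all genes tested, 4.01% higher and 0.892% lower. A call needed at least 1.5-fold and an edgeR adjusted p below 0.05. At P6, 5 were called against 13.5% of all genes (7.16% higher, 6.38% lower), with *Igfbp3* higher and *Igf2*, *Igfbp4*, *Igfbp6* and *Igfbp7* lower. At P8, 5 were called against 19.6% of all genes (11.2% higher, 8.37% lower), with *Igf1* and *Igfbp3* higher and *Igf2*, *Igfbp5* and *Igfbp6* lower. The libraries of the 2 labels did not overlap for 8, 6 and 9 of the 10 genes at P1, P6 and P8, while this held for 51.2%, 59.0% and 70.8% of all genes. The median absolute log2 fold change of the 10 genes was 0.34, 0.76 and 0.65, beside 0.175, 0.267 and 0.328 over all genes.

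**Figure D4:**
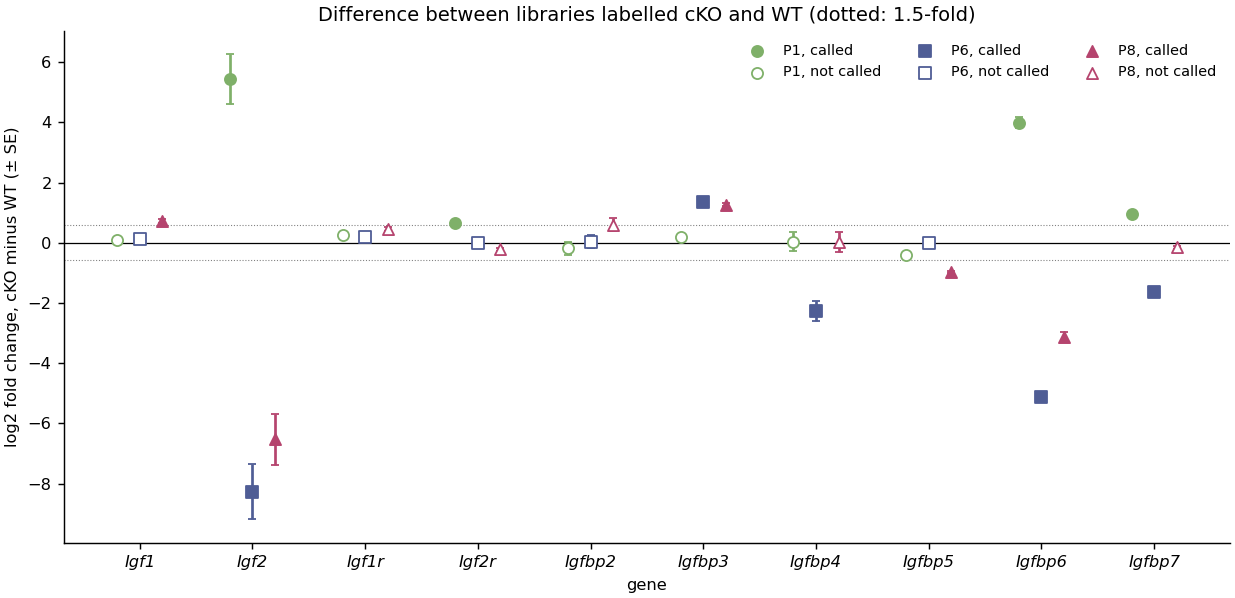
Log2 fold change (cKO minus WT, ± SE) of each gene at P1, P6 and P8; filled symbols were called (adjusted p below 0.05 and at least 1.5-fold), open ones were not, and dotted lines mark 1.5-fold. *Igf2* and *Igfbp6* are far above 0 at P1 and far below at P6 and P8, and the receptors stay between -0.22 and 0.67.

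*Igf1*, the other ligand (chr10:87858265-87937042), rose with age under both labels. Levels were 155 and 159 CPM in P1 WT, 166 and 169.5 CPM in P1 cKO, 387 and 379 CPM in P6 WT, 389 and 453 CPM in P6 cKO, 431 and 466 CPM in P8 WT, and 729.6 and 740.3 CPM in P8 cKO. The P8 cKO libraries stood above all others. The rise from P1 to P6 was 1.29 ± 0.07 in WT and 1.33 ± 0.07 in cKO on the log2 scale. *Igf1* was up-regulated in cKO at P8 (0.71 ± 0.07, adjusted p = 3.22e-05), with differences of 0.09 ± 0.07 at P1 and 0.14 ± 0.07 at P6 that were not called. Microglia markers were also higher in cKO at P8, with 7 of 10 called higher and 1 lower and summed levels of 5685 and 5700 CPM against 2835 and 2714 CPM. At P1 their sum was 3727 and 3739 CPM in WT and 3101 and 3191 CPM in cKO, and at P6 it was 3033 and 3161 CPM in WT and 3370 and 3273 CPM in cKO, and no marker was at 0 in both libraries of a group. Their part in the *Igf1* result was not tested. Astrocyte markers went the other way at P8, with 5 of 9 called lower and sums of 702.5 and 687 CPM in cKO against 1566 and 1949 CPM in WT.

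Of the receptors, *Igf2r* (chr17:12682406-12769664) was up-regulated in P1 cKO, with 267 and 270.3 CPM against 167 and 171 CPM in WT (0.67 ± 0.05, adjusted p = 6.63e-05). It did not separate at P6, where WT had 368 and 329.9 CPM and cKO 338 and 360.1 CPM, and at P8 cKO lay below WT with 424 and 437 CPM against 501 and 502 CPM (-0.22 ± 0.05, under 1.5-fold). *Igf2r* is expressed from the maternal allele and its span overlaps the antisense RNA *Airn*. *Igf1r* (chr7:67952827-68233668) peaked at P6 under both labels. It had 119 and 124 CPM in P1 WT, 145 and 147 CPM in P1 cKO, 246 and 214 CPM in P6 WT, 244 and 277 CPM in P6 cKO, 145 and 152 CPM in P8 WT, and 203 and 207 CPM in P8 cKO. Its largest difference between labels was 0.46 ± 0.07 at P8 (adjusted p = 0.0011), which is under 1.5-fold.

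*Igfbp3*, the main IGF carrier of serum (chr11:7206086-7213923), was the only one of the 10 called higher in cKO at both later ages. Levels were 477 and 483 CPM in P1 WT and 555 and 544 CPM in P1 cKO, 378 and 395 CPM in P6 WT and 1024 and 945 CPM in P6 cKO, and 86.3 and 84.2 CPM in P8 WT and 199.7 and 212 CPM in P8 cKO. Every cKO library was above WT of its age. The log2 fold changes were 0.20 ± 0.05 at P1, under 1.5-fold, 1.35 ± 0.05 at P6 (adjusted p = 1.15e-07) and 1.27 ± 0.05 at P8 (adjusted p = 9.95e-08). From P6 to P8 it fell by 2.18 ± 0.05 in WT and by 2.26 ± 0.05 in cKO, and the test of these steps against each other gave -0.08 ± 0.07 (adjusted p = 0.492).

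*Igfbp4*, a substrate of the protease PAPP-A (chr11:99041244-99054392), was low in P6 cKO alone. It had 154 and 164 CPM in P1 WT, 163 and 165 CPM in P1 cKO, 200.4 and 208 CPM in P6 WT, 30.5 and 54.5 CPM in P6 cKO, 226 and 471 CPM in P8 WT, and 365 and 345 CPM in P8 cKO. Labels overlapped at P1 and P8. The difference at P6 was -2.26 ± 0.33 (adjusted p = 0.000938), and those at P1 and P8 were 0.04 ± 0.32 and 0.03 ± 0.32. The P8 value depends on which P8 WT library is kept, being -0.41 without replicate 1 and 0.65 without replicate 2, neither of them called.

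*Igfbp5* and *Igfbp2* lie 5457 bases apart on chromosome 1, and both peaked at P6. *Igfbp5*, also a PAPP-A substrate (chr1:72857932-72874884), had 1289 and 1328 CPM in P1 WT, 981 and 982 CPM in P1 cKO, 3023 and 3043 CPM in P6 WT, 2944 and 3145 CPM in P6 cKO, 1329 and 1434 CPM in P8 WT, and 709.7 and 698 CPM in P8 cKO. It was lower in cKO at P8 (-0.97 ± 0.04, adjusted p = 2.34e-07), did not separate at P6, and was lower by 0.42 ± 0.04 at P1, under 1.5-fold. *Igfbp2* (chr1:72824503-72852474) had 1573 and 1267 CPM in P1 WT, 1244 and 1270.0 CPM in P1 cKO, 2242 and 3202 CPM in P6 WT, 3420 and 2153 CPM in P6 cKO, 713 and 669.9 CPM in P8 WT, and 1078 and 1011 CPM in P8 cKO. The P6 replicates of *Igfbp2* differed widely and the labels overlapped there. At P8 its cKO libraries were above WT, by 0.60 ± 0.22 with an adjusted p of 0.0612. *Igfbp2* at P8 was called when any P6 library was left out, but not in the other 13 of 17 alternatives. The size ranged from 0.55, under 1.5-fold, to 0.64 over these alternatives.

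Between P1 and P6, most of the 10 genes rose in WT. There 8 were called higher and 0 lower, against 12.2% and 10.9% of all genes (23.1% in all), with *Igfbp7* up by 2.39 ± 0.05 and *Igfbp6* by 7.66 ± 0.19. In cKO 5 were higher (*Igf1*, *Igf1r*, *Igfbp2*, *Igfbp3* and *Igfbp5*) and 3 lower (*Igf2*, *Igfbp4* and *Igfbp6*), against 11.0% and 10.4% of all genes (21.4% in all). From P6 to P8, 0 were higher and 5 lower in WT (*Igf1r*, *Igfbp2*, *Igfbp3*, *Igfbp5* and *Igfbp6*), against 8.66% and 10.3% of all genes (18.9% in all). In cKO 5 were higher (*Igf1*, *Igf2*, *Igfbp4*, *Igfbp6* and *Igfbp7*) and 3 lower (*Igfbp2*, *Igfbp3* and *Igfbp5*), against 11.9% and 12.2% of all genes (24.0% in all). *Igfbp4* rose there by 3.06 ± 0.34 and *Igfbp7* by 1.61 ± 0.05. Steps of 1 label share their P6 libraries. Some WT steps depended on 1 library: *Igfbp2* from P1 to P6 had adjusted p of 0.0557 without P1 WT replicate 2 and 0.055 without P6 WT replicate 2, the P6 to P8 change of *Igf1r* became -0.53 without P6 WT replicate 1, and that of *Igfbp6* became -0.56 without P6 WT replicate 2, both on the log2 scale and under 1.5-fold. *Igfbp4* from P6 to P8 in WT was 0.77 ± 0.32 and not called, but 1.21 and called without P8 WT replicate 1, and *Igf2r* was 0.52 ± 0.05 and 0.60, called, without P6 WT replicate 1.

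The genotype difference itself changed between ages for most of the 10 genes. By adjusted p alone it changed for 7 from P1 to P6 (2 towards higher in cKO, 5 towards lower), against 15.3% of all genes (7.12% and 8.19%). From P6 to P8 it changed for 5 (4 towards higher, 1 towards lower), against 21.5% (12.6% and 8.83%). From P1 to P8 it changed for 7 (2 towards higher, 5 towards lower), against 25.7% (14.0% and 11.7%). These contrasts share libraries with each other and with the comparisons above.

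Other genes of the pathway were taken from a list of 70, of which 62 were tested. At P1, 8 were called higher and 0 lower, at P6 5 higher and 10 lower, and at P8 11 higher and 9 lower. These are 12.9%, 24.2% and 32.3% of the 62 tested, beside 4.90%, 13.5% and 19.6% of all genes. The median log2 fold change of the list was 0.04, -0.03 and 0.07, beside 0, 0 and 0.0119 over all genes. *Igfbp1* and *Igfals*, which encodes the acid-labile subunit, were not analysed here.

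Genes that act on IGFs, their binding proteins or *Igf2* RNA made up 11 of the tested genes, of which 5 were called higher and 0 lower at P1, 3 higher and 6 lower at P6, and 5 higher and 4 lower at P8, beside the same shares of all genes (4.90%, 13.5% and 19.6%). *Pappa*, the protease of IGFBP4, had means of 64.2 CPM in P6 WT and 37.9 CPM in P6 cKO and was lower at that age (-0.76 ± 0.08, adjusted p = 0.000131), with 0.57 ± 0.08 at P1 and -0.17 ± 0.08 at P8, not called. *Pappa2*, a related protease, was lower at P8, at 13.1 and 15.1 CPM against 65.4 and 70.0 CPM (-2.26 ± 0.30, adjusted p = 0.000325). It was also lower at P6 (-0.95 ± 0.29, adjusted p = 0.0404), with 1.29 ± 0.35 at P1, not called. The stanniocalcins, which inhibit these proteases, were both higher at P6 and P8. *Stc1* had 18.3 and 18.1 CPM in P6 cKO against 8.96 and 6.19 CPM in WT, and 7.2 and 7.61 CPM in P8 cKO against 0.908 and 1.62 CPM in WT (1.26 ± 0.31 and 2.54 ± 0.34). At P1 *Stc1* overlapped between labels (-0.09 ± 0.345, not called). *Stc2* was higher at P6 and P8 by 1.20 ± 0.22 and 1.56 ± 0.21, and at P1 by 1.27 ± 0.22.

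*Igf2bp1*, an RNA-binding protein named for its binding of *Igf2* RNA, was higher in cKO at P1, P6 and P8 (3.11 ± 0.16, 0.86 ± 0.14 and 2.24 ± 0.15), and thus did not follow *Igf2*. Its levels at P1 were 0.872 and 0.811 CPM in WT and 7.84 and 6.74 CPM in cKO, and at P8 they were 2.76 and 2.33 CPM in WT and 11.4 and 12.6 CPM in cKO.

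The receptor and signalling genes, 51 tested, were called in 5.88%, 11.8% and 21.6% of cases at P1, P6 and P8, near the shares of all genes. *Insr*, the insulin receptor, was not called at any age, with 39.9 and 82.5 CPM in P1 WT and 51.1 and 84.4 CPM in P1 cKO, 78.5 and 77.5 CPM in P6 WT and 42.6 and 100.5 CPM in P6 cKO, and 37.4 and 41.5 CPM in P8 WT and 80.6 and 78.9 CPM in P8 cKO. At P8 its groups separated (1.01 ± 0.42, adjusted p = 0.0976). *Rictor*, a subunit of the mTOR complex that phosphorylates AKT, was lower at P6, at 69.5 and 71.2 CPM against 462 and 426 CPM (-2.66 ± 0.05, adjusted p = 5.57e-09). It was also lower at P8 (-0.82 ± 0.05, adjusted p = 1.71e-06), and its rise of 0.49 ± 0.05 at P1 was under 1.5-fold. *Shc2*, an adaptor of receptor tyrosine kinases, was higher at P1 (2.04 ± 0.26) and lower at P6 (-1.62 ± 0.23, adjusted p = 0.000691), and *Trib3*, an inhibitor of AKT, was higher at P6 (1.14 ± 0.16). *Grb10*, an imprinted adaptor that inhibits the insulin and IGF1 receptors, is shown in the plot beside *Igf2* and was chosen after its values were seen. Its levels were 48.1 and 48.1 CPM in P1 WT, 94.4 and 101 CPM in P1 cKO, 574 and 536 CPM in P6 WT, 107 and 98.0 CPM in P6 cKO, 1391 and 1388 CPM in P8 WT, and 333 and 344 CPM in P8 cKO. It was higher at P1 and lower at P6 and P8 (1.02 ± 0.05, -2.44 ± 0.05 and -2.04 ± 0.05).

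**Figure D5:**
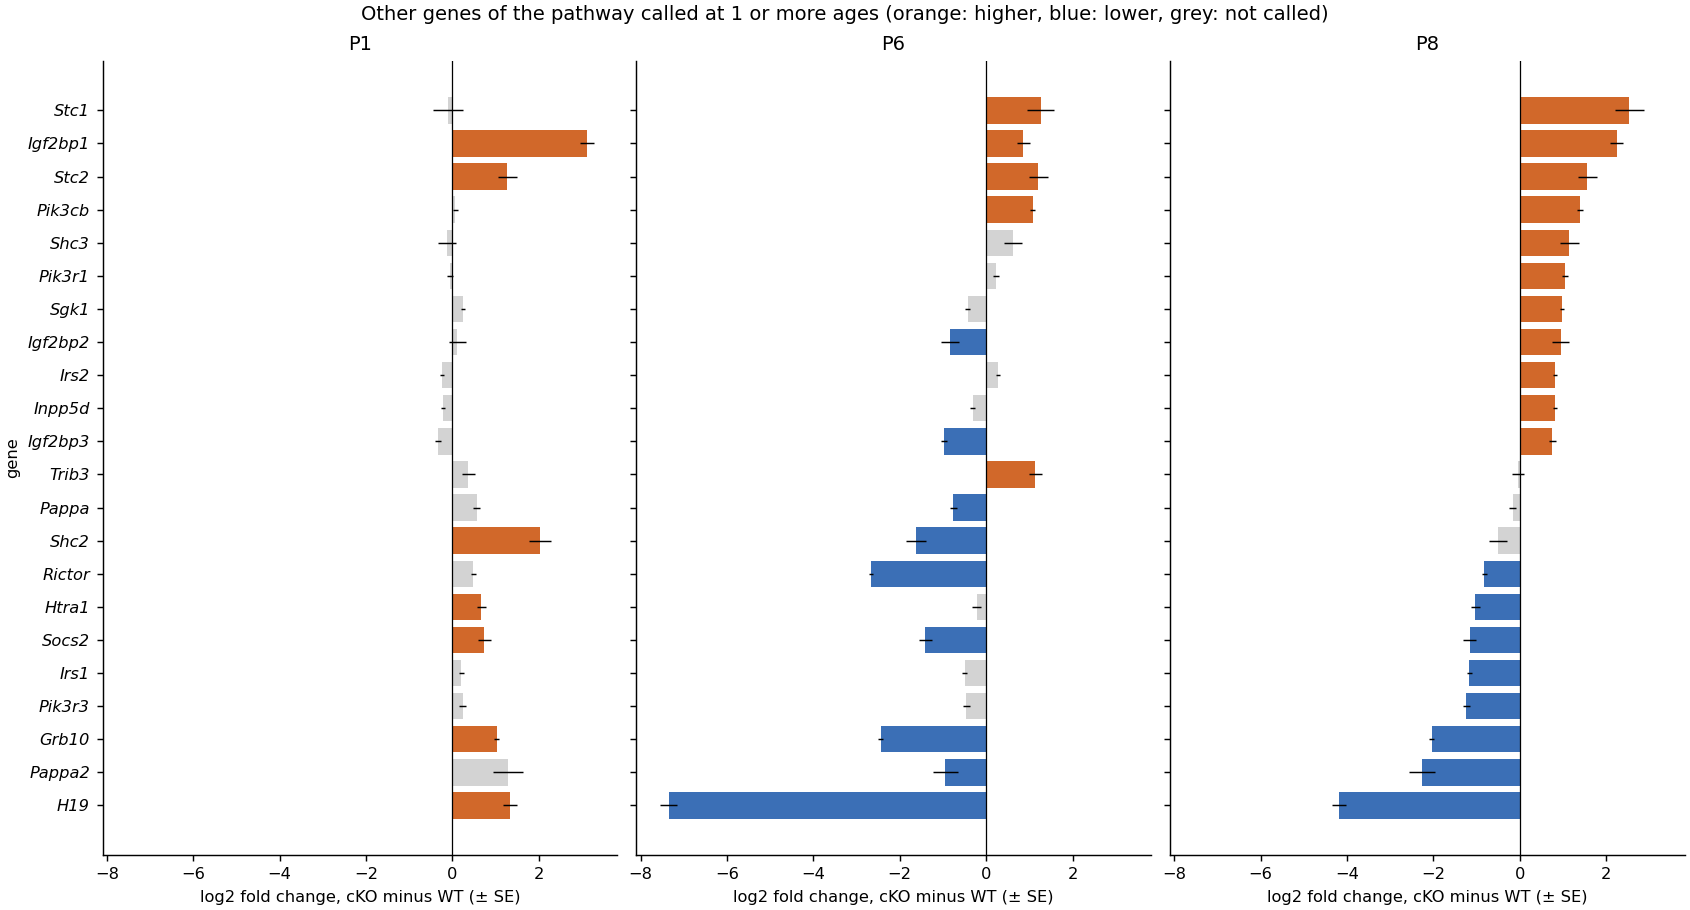
Log2 fold change (cKO minus WT, ± SE) at P1, P6 and P8 of the other pathway genes called at any of these ages, ordered by the P8 value; orange bars were called higher, blue lower and grey not called. *Igf2os* is left out because it had 0 reads in P6 cKO. *Stc2* and *Igf2bp1* are higher at all 3 ages, and *H19*, *Grb10* and *Socs2* turn from higher at P1 to lower at P6 and P8.

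The genes with profiles most like those of the IGF genes were sought among 15146 genes with a mean of at least 1 CPM, by Pearson's r of log2(CPM + 1) over the 12 libraries. For *Igf2* they were *Cdh5* (0.976), *Dcn* (0.956) and *C2cd2* (0.95), of which *Cdh5* encodes the cadherin of endothelial junctions and is in the endothelial list. *Igfbp6* was closest to *Mgat3* (0.982), *Lima1* (0.977) and *Socs2* (0.974), and *Igfbp7* to *Adgra2* (0.99), *Nid1* (0.988) and *Flrt2* (0.986). *Igf1* was closest to *Hpgd* (0.981), *Ppp3r1* (0.98) and *Camk1* (0.978). For *Igfbp3* the genes were *Cystm1* (0.994), *Cdc42ep1* (0.993) and *Sync* (0.992), for *Igfbp4* *Pla2g4a* (0.977), *Kpnb1* (0.942) and *Ahr* (0.939), for *Igfbp5* *Pcx* (0.979), *Wdr6* (0.971) and *Cmya5* (0.971), and for *Igfbp2* *Ppp2r1a* (0.973), *Dusp1* (0.968) and *Capzb* (0.967). The libraries fall into 6 groups of 2, so these values describe group means more than single libraries.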

How the data were processed

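The mRNA of primary astrocytes was sequenced in 12 libraries, 6 groups of 2. The authors deposited whole-number counts of reads per gene, not normalized, made from reads aligned with HISAT2 to mm10 per the submitters' processing notes. How reads were assigned to genes, and whether strand was used, is not given in the sources. Totals were 54413504 to 89183250 reads and the replicates differed by more than counting noise (chi-square per degree of freedom 30.5 to 47.1).

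Positions and exon lengths came from GENCODE vM21, which held 18861 of 18903 identifiers; promoter windows of all 10 genes came from RefSeq. The fit used edgeR 4.0.16 under R 4.3.3 (filterByExpr, TMM, quasi-likelihood F-test, a mean per group, all 12 libraries). The SE of a log2 fold change was its size over the root of F. Genes were called at a Benjamini-Hochberg adjusted p below 0.05 over 17938 genes with at least 1.5-fold, and changes of the genotype difference by adjusted p alone. Tests on simulated counts were run first. Alternatives were DESeq2 1.42.0, its size factors, no filter, a replicate block, the compared ages alone, other cut-offs and leaving out each library.

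The text names all 10 genes, and of the pathway lists up to 3 called rises and 3 called falls per age among genes averaging 1 CPM or more, and *Igfbp1*, *Igfals*, *Insr*, *Pappa* and *H19*. Genes with a like profile were sought for genes whose group means spanned at least 2 log2 units. Genes and lists were chosen with earlier results of these data known. Replicate numbers were not used to pair libraries. Deviations of same-numbered libraries correlated at -0.0398 to 0.0811 over all genes, which cannot tell whether they share a preparation.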

Additional observations from a re-analysis of the deposited data

Results flagged for a closer look

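Changes between ages of the difference between cKO and WT are given on the log2 scale where the interaction term in edgeR had an adjusted p below 0.05. Of all genes tested, 15.3% passed from P1 to P6, 21.5% from P6 to P8 and 25.7% from P1 to P8. From P1 to P6 the difference moved by -13.7 for *Igf2* (adjusted p = 7.53e-05), -9.10 for *Igfbp6*, -2.59 for *Igfbp7*, -2.31 for *Igfbp4*, -0.67 for *Igf2r*, 0.42 for *Igfbp5* and 1.15 for *Igfbp3*. From P6 to P8 it moved by 2.29 for *Igfbp4* (adjusted p = 0.00646), 1.99 for *Igfbp6*, 1.49 for *Igfbp7*, 0.58 for *Igf1* and -0.98 for *Igfbp5*. From P1 to P8 it moved by -11.97 for *Igf2* (adjusted p = 6.64e-05), -7.11 for *Igfbp6*, -1.10 for *Igfbp7*, -0.89 for *Igf2r*, -0.56 for *Igfbp5*, 0.62 for *Igf1* and 1.08 for *Igfbp3*. The values for *Igf2* rest on P1 WT libraries that differ 16.2-fold from each other, and ranged from -16.87 to -12.85 from P1 to P6 and from -15.13 to -11.10 from P1 to P8 when a library was left out. The summed fibroblast markers and the summed endothelial markers were on the same side of WT as *Igf2*, *Igfbp6* and *Igfbp7* at each age, and their part was not tested.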

How the results depend on the processing

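Of the 14 calls between labels, 13 held in all alternatives other than the 2-fold limit; the exception is *Igf2* at P1 with the P1 libraries alone (adjusted p = 0.0563). With a fold change of at least 2, the called genes of the 10 were 2 at P1, 3 at P8 and 3 for P6 to P8 in WT, and with the compared ages alone the pathway list had 5 calls at P1. The compared ages alone turned *Igf2r* at P6 to -0.0033. The replicate block gave 4, 5 and 5 called genes of the 10 at P1, P6 and P8, as without it, and 7, 15 and 21 of the pathway list. It turned the *Igfbp4* change from P1 to P8 to 0.041. The share of all genes was not computed under these alternatives, so these counts have none beside them. Whether same-numbered libraries share a preparation is not known.

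Leaving out 1 library turned only small values that were not called: *Igfbp4* at P1 (-0.0038 to 0.089) and P8 (-0.41 to 0.65), *Igf2r* (-0.082 to 0.082), *Igfbp5* (-0.043 to 0.052) and *Igfbp2* (-0.34 to 0.33) at P6, the P1 to P6 changes of *Igf1r* (-0.18 to 0.022), *Igf1* (-0.070 to 0.15) and *Igfbp2* (-0.16 to 0.51), and the P1 to P8 change of *Igfbp4* (-0.45 to 0.61). The *Igf2* rise from P6 to P8 in WT passed with DESeq2 (adjusted p = 0.0311), its size factors (0.0497) and the compared ages alone (0.00069). It was not called without the filter or with the replicate block, and its size ranged from 1.54 to 2.27 when a library was left out. Changes of the genotype difference gained a call in some alternatives. From P6 to P8 these were *Igf2* (1.71, adjusted p = 0.012 with the compared ages alone) and *Igf2r* (adjusted p = 0.0356 with DESeq2, 0.0474 with its size factors). From P1 to P8 they were *Igf1r* (adjusted p = 0.0453) and *Igfbp2* (0.00581) with the compared ages alone. Leaving out certain single libraries also added calls for *Igf2*, *Igf2r*, *Igf1r* and *Igfbp2* from P6 to P8. Over all libraries left out, these sizes ranged from 1.41 to 2.15, -0.30 to -0.14, 0.18 to 0.385 and 0.27 to 0.93. The same held for *Igfbp2* from P1 to P8, with sizes from 0.61 to 0.92.

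*Igfbp2* and *Insr* were over 1.5-fold apart at P8 with close replicates there and missed the threshold (edgeR adjusted p = 0.0612 and 0.0976). The *Igfbp2* difference ranged from 0.55, under 1.5-fold, to 0.64 on the log2 scale when a library was left out. The fit shares its spread over all ages, and the P6 cKO replicates differed 1.59-fold and 2.36-fold. Replicates of *Insr* also differed 2.07-fold in P1 WT and 1.65-fold in P1 cKO, and those of *Igfbp2* 1.43-fold in P6 WT.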
